A study of Mus musculus with 19 samples.

Results

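The comparison described here sets the lens of the mouse embryo at E12.5 against the lens at E10.5, and asks which pathways moved steadily over the 2 days and which moved in 1 step. The members are 3 arrays of lens at E12.5 and 3 at E10.5, chosen by their titles, so 6 of the 19 arrays of the series, and the 3 lens arrays of E11.5 serve to divide the interval. All animals were wild-type ICR mice, staged from the day a plug was found, taken as E0.5. Lenses were dissected by hand in buffered saline, kept in RNAlater, extracted on Qiagen columns and hybridised as biotin-labelled cRNA. The labels do not say how many lenses entered an array or whether the arrays of a stage are separate litters, so the p-values measure only the spread between these arrays, which may be technical. The other 10 arrays hold whole embryos and tooth germ. Whole embryos cover E10.5 to E12.5 in the lens series (4 arrays) and E11.5 to E13.5 in the tooth series (3 arrays). Tooth germ is of E13.5 (3 arrays). These arrays enter here through the shared estimate of the spread and the choice of probe set. Whole embryos of the lens series also serve as a level beside cell marker lists.

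In this interval the ectoderm that has folded in from the head surface pinches off as the lens vesicle, leaves the surface, and sorts into a front layer that keeps dividing and a back layer that stops dividing. Cells of the back layer lengthen into primary fibres and fill with crystallins, the soluble proteins that give the lens its refractive power, while fibre membranes gain channels, adhesion proteins and a beaded filament network. FGF and BMP from the eye cup drive fibre formation, and the CDK inhibitor Cdkn1c together with Prox1 is known to hold mouse fibre cells out of the cell cycle.

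Of 18193 genes with a probe set of their own, 13320 passed the filter on low signal, and each was tested with limma across all 19 arrays, with adjusted p-values over the 13320 genes. A gene is called below where its adjusted p is under 0.05, and the words rose and fell are kept for called genes. Levels are log2 signals and differences are log2 differences with the standard error (SE) of the fit. Signals under 4.71, the 95th percentile of 27 control probe sets with no target, are background, and signals above 12 are treated as near the ceiling, so differences that start or end there are uncertain in size. In whole-tissue RNA, fewer cells of a type and less RNA per cell cannot be told apart.

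The arrays of a stage correlated between 0.9645 and 0.9943, and 2 arrays stood apart. E10.5 replicate 3 lay at least 1 log2 unit above both other E10.5 arrays for 111 genes, among them 12 of 14 crystallins and 6 of 11 fibre genes but 0 of 35 mitosis genes. E11.5 replicate 1 lay at least 1 unit below both other E11.5 arrays for 921 genes, 5 crystallins included. By the signal of the bacterial control probes the arrays also divide into a high set and a low set. The high set holds E10.5 replicates 1 and 2, E11.5 replicate 1 and E12.5 replicate 1, and the low set the remaining 5 lens arrays. Where a stage has a single array within a set, its spread is taken from the other stages. The main results that rest on these arrays are given with and without them.

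Over the 2 days 1187 genes rose (8.91% of those tested) and 1759 fell (13.2%), 468 and 553 of them at least 2-fold. Leaving out E10.5 replicate 3 gave 1220 rises (9.16%) and 1731 falls (13.0%), and 1057 rises and 1569 falls were called both ways. Within the high set 672 rose and 896 fell, within the low set 759 and 1079, and with the set as a block 1363 and 2118. Median centring of each array gave 1543 rises and 1541 falls. The median difference over all tested genes was -0.01.

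Of the single steps, E11.5 minus E10.5 gave 203 rises (1.52%) and 365 falls (2.74%), and E12.5 minus E11.5 gave 402 rises (3.02%) and 459 falls (3.45%). Called in both steps and in the same direction were 49 rising genes (0.368%) and 100 falling genes (0.751%). All 9 lens arrays stood in the order of the stages with no overlap for 183 rising (1.37%) and 487 falling genes (3.66%). Of the genes called over the 2 days, 679 that rose and 1077 that fell were called in neither step alone.

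Steadiness was described by the share of the 2-day change that fell in the first step. An even change had a share between 33.3% and 66.7%, an early change more and a late change less. Of the rises, 249 (21.0%) were early, 499 (42.0%) even and 439 (37.0%) late, and of the falls 442 (25.1%) were early, 889 (50.5%) even and 428 (24.3%) late. Both steps use the same E11.5 arrays, so an array of E11.5 that stands apart moves both steps in opposite ways, and these classes carry no test. Without E11.5 replicate 1, 989 of the called genes were early, 1524 even and 1012 late, against 691, 1388 and 867 with it. The difference between the steps itself was called for 60 genes (0.450%), 25 of which rose and 23 fell over the 2 days. Only 1 of those 48 was in the even class, but the share is built from the same 2 steps, so this is no test of the classes.

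**Figure D1:**
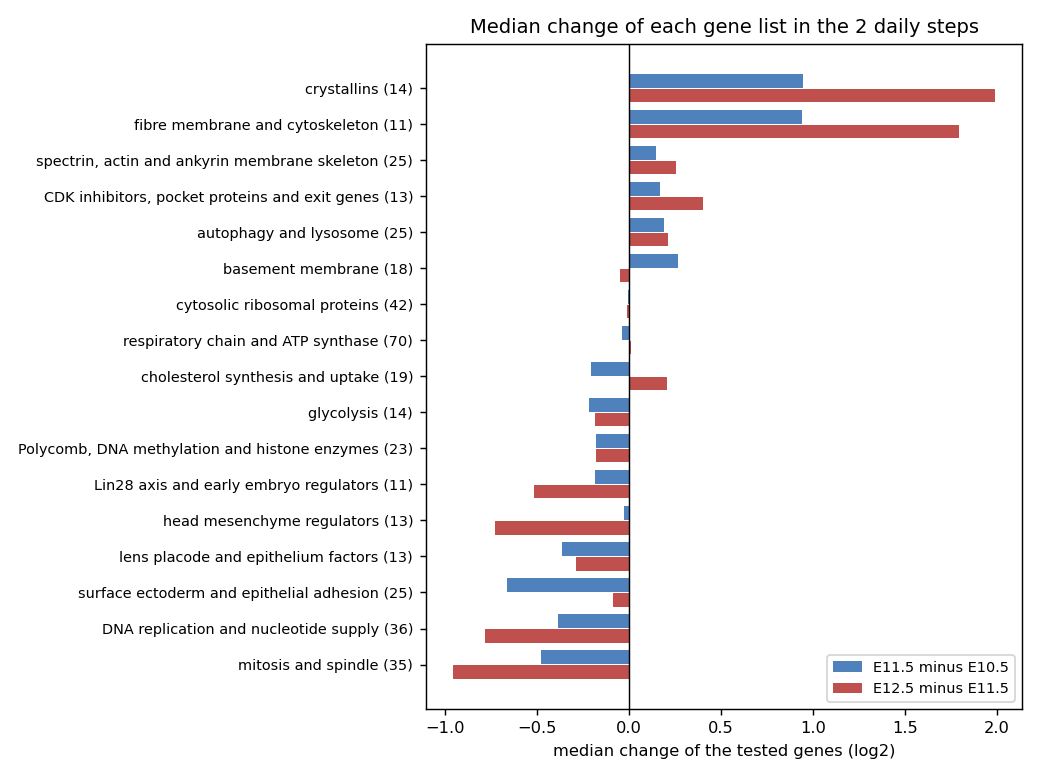
Median log2 change of 17 gene lists in the first step (blue, E11.5 minus E10.5) and in the second step (red, E12.5 minus E11.5), with the number of tested genes in brackets. Crystallin and fibre lists extend to the right with a longer red bar (1.99 and 1.79), replication and mitosis lists to the left in both steps, and the surface ectoderm list to the left mainly in blue (-0.66 against -0.09). Without E10.5 replicate 3, which is included here, the crystallin medians were 2.17 in the first step and 1.99 in the second.

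**Figure D2:**
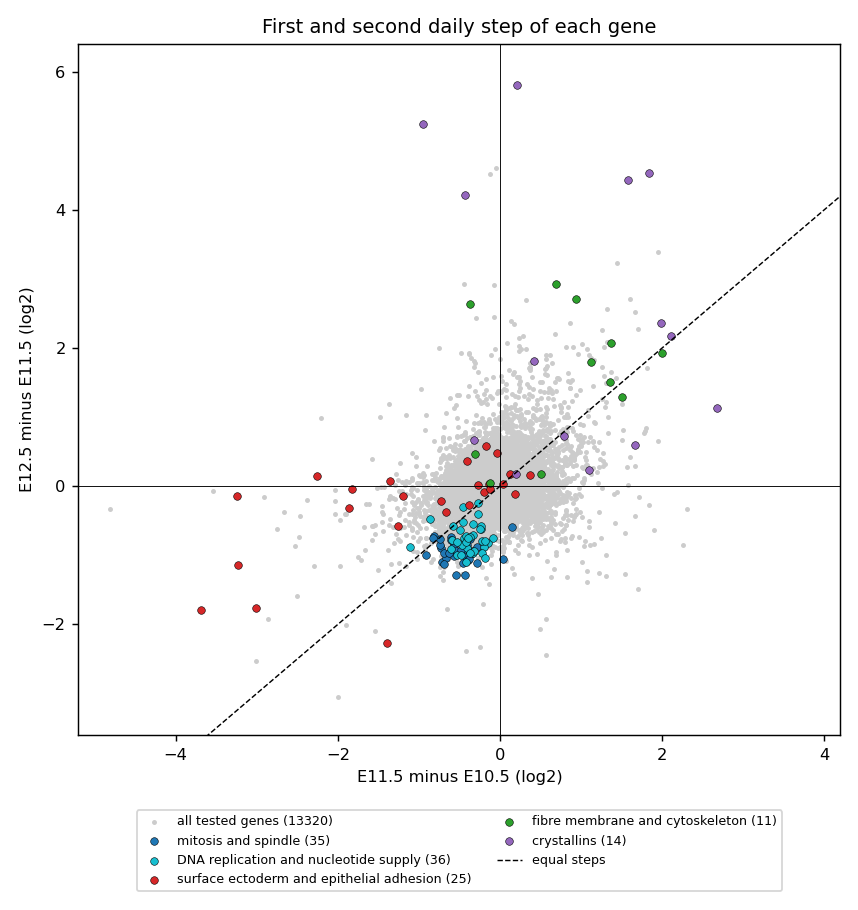
First step (x axis, E11.5 minus E10.5, log2) against second step (y axis, E12.5 minus E11.5, log2) of the 13320 tested genes (grey), with 5 lists in colour and equal steps as a dashed line. Mitosis and replication genes lie close together at the lower left, surface ectoderm genes spread along the left arm, and several crystallins stand high with little first step. All arrays are used here, and the median first step of the crystallins was 0.94 with E10.5 replicate 3 and 2.17 without it.

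The crystallins rose most. Of 14 tested genes 11 rose and none fell, with a median of 3.79. Without E10.5 replicate 3, 12 rose and the median was 5.63. Within the high set 12 rose (median 5.58), and within the low set, where replicate 3 is the only E10.5 array, 0 were called (median 0.20). Cryga (Entrez gene 12964, chr1:65100389-65103363), a gamma crystallin of fibre cells, stood at 4.50, 4.49 and 13.73 (E10.5), 5.85, 12.32 and 10.06 (E11.5), and 13.97, 13.88 and 13.98 (E12.5). The E12.5 arrays agree closely, while E10.5 replicate 3 is almost as high as they are and the other E10.5 arrays are at background. Its difference was 6.37 ± 1.77 (adjusted p = 0.0131), and 9.45 without that array. Crygb, its neighbour on chromosome 1, showed the same picture at 4.03, 3.89 and 13.46 (E10.5), 4.90, 9.63 and 7.46 (E11.5), and 13.02, 13.16 and 13.22 (E12.5), and reached 6.01 ± 1.62 (adjusted p = 0.0106), or 9.18 without replicate 3. Gamma crystallin genes are close copies of each other, so their probe sets may share signal. The fit shares 1 spread per gene over all groups, including whole embryos and tooth germ. For crystallins whose E10.5 arrays differ this much, it understates the spread between those arrays, and the SE and adjusted p are too small. Fewer crystallins were called with the lens arrays alone, as given under the processing alternatives.

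Cryaa (Entrez gene 12954, chr17:31677931-31681730), alpha A-crystallin, was high from the start at 12.47, 12.55 and 14.14 (E10.5), 13.91, 14.20 and 14.33 (E11.5), and 14.39, 14.34 and 14.44 (E12.5), and rose by 1.33 ± 0.33 (adjusted p = 0.00541). Its values lie above 12 at every stage, so this difference is a compressed one. Cryba4, a beta crystallin, stood at 5.47, 5.35 and 13.56 (E10.5), 7.69, 11.86 and 9.59 (E11.5), and 14.09, 14.16 and 14.18 (E12.5), and rose by 6.01 ± 1.44. Crygn, which joins beta and gamma crystallin features, stood at 7.79, 7.48 and 12.41 (E10.5), 10.05, 12.38 and 11.21 (E11.5), and 13.56, 13.57 and 13.61 (E12.5), and rose by 4.36 ± 0.88, with 45.6% of the change in the first step. By share, 2 of the 11 called crystallins were early, 3 even and 6 late. Without replicate 3 the 12 called were 3 early, 7 even and 2 late, and without E11.5 replicate 1 as well, a choice made after seeing the data, 7 were early, 3 even and 2 late. The order of the crystallin rise within the 2 days moved with those 2 arrays.

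Maf proteins are known to bind MARE elements in crystallin promoters, and the letters of a MARE half-site, TGCTGAC, were searched on both strands in the RefSeq promoters (250 bases before to 50 after the start, assembly GRCm38.p6). They occurred in 5 of 13 crystallin promoters (38.5%), in 3.61% of the promoters of tested genes and in 4.58% of all 27025 promoters. The start is that of 1 RefSeq transcript per gene, and for Cryba4, Top2a and Mcm5 it lies inside the annotated span of the gene. The stretch before the start is shown for Cryaa (chr17:31677811-31677930, plus strand) and Cryba4 (chr5:112252519-112252718, minus strand), the first high throughout and the second among the steepest rises, with the half-site in capitals. A match is a description of the letters only.
Cryaa: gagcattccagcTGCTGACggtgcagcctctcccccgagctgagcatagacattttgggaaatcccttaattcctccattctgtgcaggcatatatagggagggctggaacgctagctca
Cryba4: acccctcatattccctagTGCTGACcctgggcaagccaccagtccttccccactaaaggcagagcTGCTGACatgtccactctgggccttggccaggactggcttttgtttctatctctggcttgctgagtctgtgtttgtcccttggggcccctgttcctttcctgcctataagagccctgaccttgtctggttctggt

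Fibre membrane and cytoskeleton genes rose as well. Of 11 tested, 7 rose and none fell (median 2.87), and without E10.5 replicate 3 10 rose (median 3.51). Within the high set 8 rose (median 3.36), and within the low set 6 rose and 2 fell (median 1.49). By share 5 of the 7 were even and 2 late. Without E10.5 replicate 3 there were 1 early, 8 even and 1 late, within the high set 4 even and 4 late, and within the low set 2 early, 1 even and 5 late. Bfsp2 (Entrez gene 107993, chr9:103424924-103480405), which with Bfsp1 forms the beaded filament, stood at 6.35, 6.25 and 6.88 (E10.5), 7.45, 8.37 and 7.77 (E11.5), and 10.16, 10.03 and 9.64 (E12.5). All 9 arrays follow the order of the stages. It rose by 1.37 in the first step (adjusted p = 0.00132) and by 2.08 in the second (adjusted p = 2.72e-05), and by 3.45 ± 0.23 in all.

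Capn3, a calcium-dependent protease with a lens splice form, also kept all 9 arrays in order, at 10.504, 10.79 and 11.15 (E10.5), 12.27, 11.91 and 11.64 (E11.5), and 13.65, 13.66 and 13.89 (E12.5). Its steps were 1.13 and 1.79, both called. Lim2, an abundant fibre membrane protein, stood at 7.73, 7.32 and 12.15 (E10.5), 10.39, 11.98 and 10.84 (E11.5), and 12.71, 13.12 and 13.16 (E12.5), and rose by 3.93 ± 0.76, in steps of 2.0 and 1.93. E10.5 replicate 3 again lies above the E11.5 arrays, and neither step was called by itself. Mip, the water channel aquaporin 0, stood at 8.20, 8.36 and 10.55 (E10.5), 9.59, 10.47 and 9.87 (E11.5), and 12.75, 12.66 and 12.67 (E12.5), and rose by 3.66 ± 0.40 (adjusted p = 2.51e-06), with 25.8% of the change in the first step.

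Tmod1 (Entrez gene 21916, chr4:46038940-46116032), which caps the pointed ends of actin filaments in the fibre membrane skeleton, moved late. It stood at 5.79, 5.86 and 6.41 (E10.5), 6.17, 7.34 and 6.62 (E11.5), and 9.57, 9.67 and 9.67 (E12.5). The E12.5 arrays lie well above all others. The second step of 2.93 exceeded the first of 0.69 by 2.24 ± 0.41 (adjusted p of the difference 0.0164, and 0.0205 without E10.5 replicate 3).

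**Figure D3:**
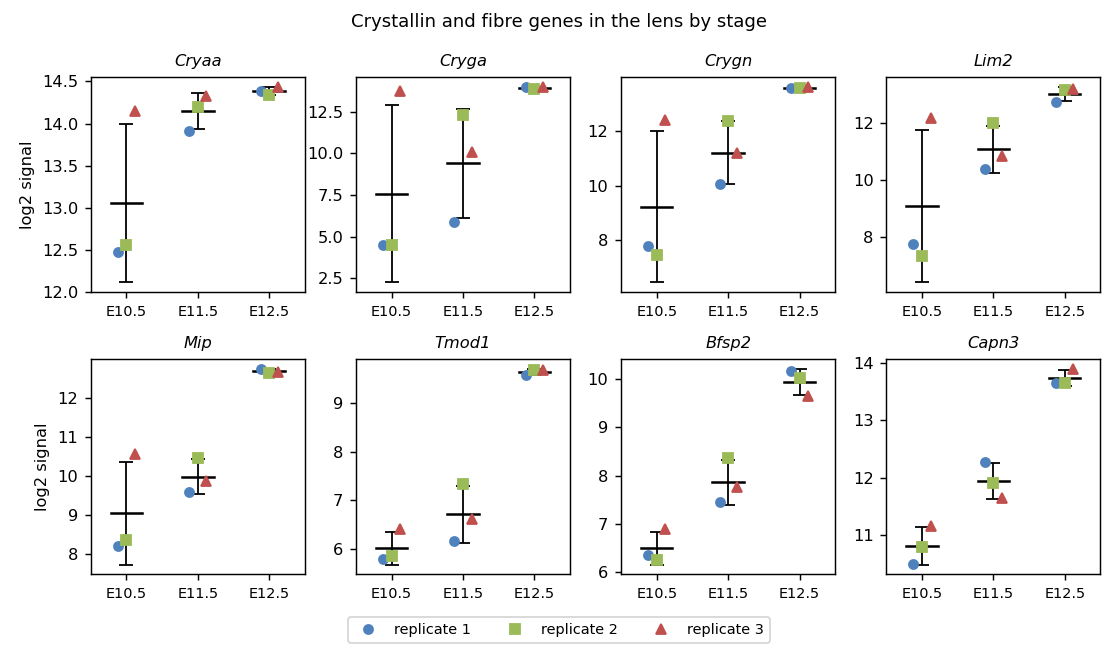
Log2 signal of 8 crystallin and fibre genes on each lens array by stage, with the replicate number by colour and shape, the mean as a bar and the SD (n = 3) as whiskers. E10.5 replicate 3 stands above replicates 1 and 2 in each panel, and Tmod1, Mip and Bfsp2 are at their highest on the 3 E12.5 arrays.

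Of 11 factors of fibre differentiation 4 rose and 1 fell. Hsf4, a heat shock factor needed for fibre maturation, stood at 4.49, 4.60 and 5.16 (E10.5), 5.32, 5.18 and 4.94 (E11.5), and 7.12, 6.74 and 6.34 (E12.5), near background until E11.5 and above it on every E12.5 array. It rose by 1.98 ± 0.21. Prox1 was early: it averaged 10.22 ± 0.28 at E12.5 and 9.18 ± 0.20 at E10.5 (SD, n = 3 each), and 88.5% of its rise of 1.03 ± 0.19 came in the first step. Sox1, an activator of gamma crystallin genes, rose by 1.38 ± 0.30, and Mafg, a small Maf protein that pairs with large ones at MARE elements, by 0.74 ± 0.17. Creb1, a cAMP response factor, fell (-0.67 ± 0.14).

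RNA granule and RNA-binding proteins of the lens gave 4 rises and 1 fall among 10. Tdrd7, whose loss causes cataract in humans and mice, stood at 9.36, 9.30 and 10.61 (E10.5), 9.30, 10.62 and 10.14 (E11.5), and 12.11, 11.84 and 12.05 (E12.5), and rose by 2.24 ± 0.32, most of it in the second step (1.98, adjusted p = 0.000645). Rbm24, an RNA-binding protein of the early lens, rose by 2.55 ± 0.41 and Caprin2, a granule protein, by 2.45 ± 0.50, with 70% and 11% of the change in the first step. Carhsp1, a cold-shock domain protein, rose in both steps (0.84 and 1.15), and Rbfox2, a splicing factor, fell (-1.08 ± 0.23).

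The membrane skeleton changed with the fibre genes: of 25 spectrin, actin and ankyrin genes 11 rose and 3 fell (median 0.40). Ank2, ankyrin B, stood at 9.37, 9.16 and 10.19 (E10.5), 10.34, 10.83 and 10.82 (E11.5), and 11.84, 11.48 and 11.73 (E12.5), in the order of the stages on all 9 arrays. Its steps of 1.09 and 1.02 were both called and nearly equal. Sptb, a beta spectrin, rose by 1.5 ± 0.21, with 81.2% in the first step, and Add2, an adducin that links spectrin to actin, by 2.26 ± 0.45, with 10.3%. The tropomyosins Tpm1 (-1.08 ± 0.19) and Tpm4 (-0.87 ± 0.14) and the second tropomodulin Tmod3 (-0.74 ± 0.22) fell.

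Of 18 basement membrane genes, which build the lens capsule, 6 rose and 2 fell. The collagen IV chains moved together. Col4a6 stood at 9.03, 9.10 and 9.20 (E10.5), 10.15, 9.79 and 9.87 (E11.5), and 10.78, 10.57 and 10.80 (E12.5), in stage order on all 9 arrays, with steps of 0.83 and 0.78, both called. Col4a2 rose by 1.39 ± 0.23, Col4a5 by 1.28 ± 0.26 and Col4a1 by 1.21 ± 0.20, while agrin (Agrn, -1.33 ± 0.21) and the laminin chain Lamb1 (-0.74 ± 0.21) fell.

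Mitosis genes fell almost throughout. Of 35 tested, 34 fell and none rose, with a median of -1.44, in steps of -0.48 and -0.96. In the first step 10 fell, in the second 33, and 10 in both. By share 17 were even and 17 late, and none was early. Within the high set 2 were early, 17 even and 15 late, and within the low set, where no fall was called in the first step, 11 were even and 23 late. The median was -1.49 without E10.5 replicate 3, -1.35 within the high set and -1.42 within the low set, with 34 falls each time. Cenpa (Entrez gene 12615, chr5:30666877-30674837), the histone variant of centromeres, stood at 10.88, 11.06 and 10.65 (E10.5), 10.37, 10.30 and 10.29 (E11.5), and 9.33, 9.05 and 8.73 (E12.5). No array of a stage overlaps with another stage. Its steps of -0.55 and -1.28 were both called, and its 2-day difference was -1.83 ± 0.14 (adjusted p = 5.05e-08). A second Cenpa probe set changed by only -0.12 over the 2 days.

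Aurka (Entrez gene 20878, chr2:172356190-172370886), the spindle pole kinase, stood at 10.21, 10.51 and 9.88 (E10.5), 9.71, 9.41 and 9.34 (E11.5), and 8.57, 8.38 and 8.20 (E12.5), again with no overlap between stages. Its steps were -0.71 (adjusted p = 0.0317) and -1.10 (adjusted p = 0.000926). Cenpe, a kinetochore motor, had similar steps of -0.91 and -0.99. Tpx2, which activates Aurka on the spindle, fell by 1.71 ± 0.16, with 24.9% in the first step. Mki67 (Entrez gene 17345, chr7:135689784-135716450), a protein of cycling cells, stood at 11.54, 11.63 and 10.94 (E10.5), 11.26, 10.18 and 10.58 (E11.5), and 10.43, 9.46 and 9.23 (E12.5), where E11.5 replicate 1 reaches the E10.5 range, and differed by -1.66 ± 0.27 (adjusted p = 0.000156). Foxm1, the factor that drives many of these genes, was the member not called, at 7.82, 7.17 and 7.91 (E10.5), 8.41, 7.43 and 7.51 (E11.5), and 7.04, 7.21 and 7.35 (E12.5) (-0.43 ± 0.23, adjusted p = 0.211).

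Many mitosis genes are known to carry a cell cycle homology region (CHR, TTTGAA) and CCAAT boxes near the start, where the DREAM and MuvB complexes and NF-Y bind. On either strand TTTGAA occurred in 22 of 28 mitosis promoters (78.6%) and in 18.1% of all promoters, and CCAAT in 21 of 28 (75%) and in 37.9%. TTTGAA was in 17.5% of the promoters of all genes that fell and in 10.9% of those of all genes that rose, against 11.8% of the promoters of all tested genes. The last 120 bases before the start are shown for Cdc20, the activator of the anaphase-promoting complex (chr4:118437344-118437463, minus strand), Top2a, a topoisomerase (chr11:99024190-99024309, minus strand), and Cdk1, the mitotic kinase (chr10:69352913-69353032, minus strand), with CCAAT or its complement ATTGG and TTTGAA or its complement TTCAAA in capitals. These 3 genes fell by 1.16, 1.25 and 1.35.
Cdc20: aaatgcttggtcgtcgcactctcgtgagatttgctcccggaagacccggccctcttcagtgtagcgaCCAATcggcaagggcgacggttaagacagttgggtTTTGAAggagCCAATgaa
Top2a: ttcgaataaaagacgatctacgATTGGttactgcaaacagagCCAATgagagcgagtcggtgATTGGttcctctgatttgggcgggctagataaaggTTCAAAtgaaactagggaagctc
Cdk1: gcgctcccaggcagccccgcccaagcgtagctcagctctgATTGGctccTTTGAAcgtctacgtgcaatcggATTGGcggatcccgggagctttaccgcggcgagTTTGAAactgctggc

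DNA replication and nucleotide supply moved with mitosis. All 36 tested genes fell (median -1.15, in steps of -0.38 and -0.78), 5 in the first step and 30 in the second. Of these 19 were even and 17 late, and for 25 of them all 9 arrays stood in stage order. Within the high set 3 were early, 16 even and 10 late, and within the low set, with no fall called in the first step, 4 were even and 31 late. Without E10.5 replicate 3 all 36 fell, and within the high and low sets 29 and 35 (medians -1.10 and -1.07). Mcm5 (Entrez gene 17218, chr8:75109468-75128439), a subunit of the replicative helicase, stood at 11.36, 11.47 and 11.17 (E10.5), 10.72, 10.73 and 10.96 (E11.5), and 9.96, 9.79 and 9.66 (E12.5). The stages do not overlap. Its steps were -0.53 and -1.0, of which the second was called, and its 2-day difference was -1.53 ± 0.15 (adjusted p = 7.12e-07).

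Rrm2, a subunit of the enzyme that makes deoxynucleotides, stood at 11.43, 11.54 and 11.54 (E10.5), 11.09, 11.04 and 11.12 (E11.5), and 9.95, 10.17 and 9.85 (E12.5), with no overlap, and fell by 1.51 ± 0.14, with 27.6% in the first step. Prim1, the catalytic subunit of primase, was called in both steps (-0.48 and -0.99). Cdc6, which loads the helicase at origins, fell most in the list (-1.99 ± 0.28), and 56% of its fall came in the first step. Cdc45, which joins the helicase when it starts to unwind, fell by 1.51 ± 0.21.

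E2F factors bind the letters TTTGGCGC or TTTCGCGC in promoters of replication genes. On either strand these occurred in 9 of 31 replication promoters (29.0%), in 1 of 28 mitosis promoters, in 1.57% of the promoters of tested genes and in 0.833% of all promoters. TTTGAA occurred in 12.9% of the replication promoters and CCAAT in 19 of 31 (61.3%), against 11.8% and 38.3% of the promoters of tested genes. Shown are the last 120 bases before the start of Mcm6 (chr1:128359706-128359825, minus strand) and the last 160 of Mcm5 (chr8:75109349-75109508, plus strand), both helicase subunits, with E2F letters and CCAAT or ATTGG in capitals. The first capital run of each holds 2 overlapping E2F matches on opposite strands.
Mcm6: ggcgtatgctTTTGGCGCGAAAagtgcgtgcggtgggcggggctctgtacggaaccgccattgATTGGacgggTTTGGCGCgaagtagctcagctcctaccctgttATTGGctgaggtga
Mcm5: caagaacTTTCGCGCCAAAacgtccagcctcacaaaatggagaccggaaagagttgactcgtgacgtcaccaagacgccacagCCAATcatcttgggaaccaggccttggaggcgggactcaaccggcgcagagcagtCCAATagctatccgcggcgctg

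**Figure D4:**
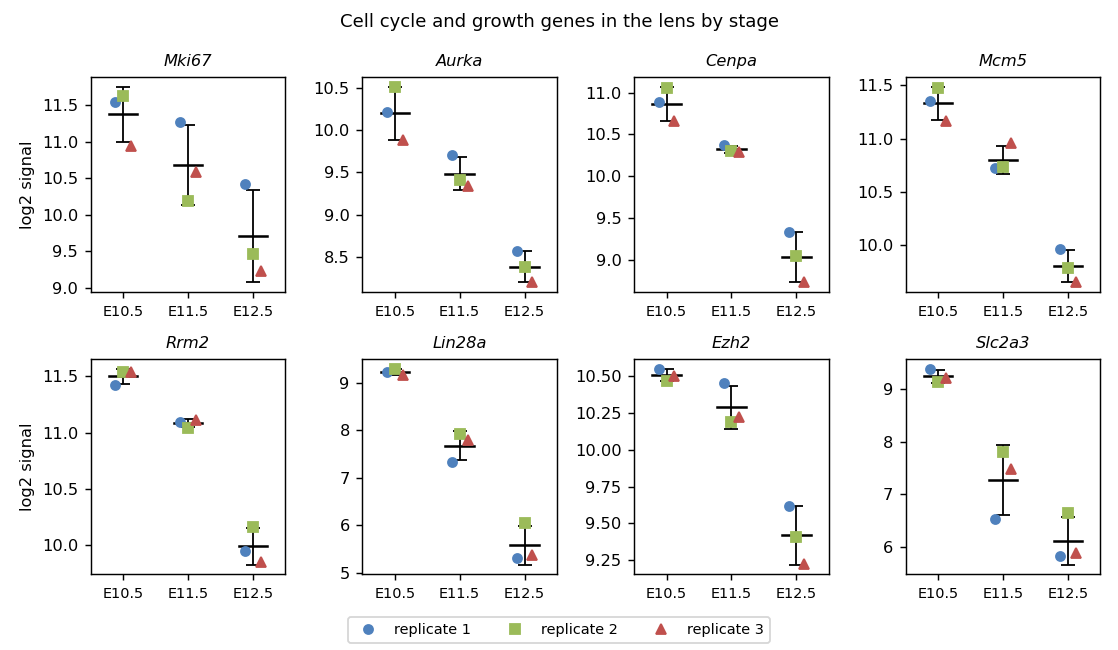
Log2 signal of 8 falling genes of the cell cycle, early embryo, Polycomb and glucose uptake groups on each lens array by stage, with the replicate number by colour and shape, the mean as a bar and the SD (n = 3) as whiskers. In Aurka, Cenpa, Mcm5, Rrm2, Lin28a and Ezh2 the 3 stages do not overlap, and Ezh2 drops mainly between E11.5 and E12.5.

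Upstream regulators of the cycle were mixed. Of 22 G1 cyclins, E2F and Myc factors 4 rose and 8 fell. The repressor E2Fs E2f7 (-1.69 ± 0.21) and E2f8 (-1.45 ± 0.19) fell, as did Cdk2 (-1.11 ± 0.19) and Mybl2 (-1.09 ± 0.26), a subunit of the MuvB complex in cycling cells. Mycn (Entrez gene 18109, chr12:12936093-12941836), a Myc factor of growing embryonic tissue, went the other way, at 9.73, 9.78 and 10.27 (E10.5), 10.67, 11.19 and 10.96 (E11.5), and 11.07, 11.35 and 11.22 (E12.5). All E12.5 arrays lie above all E10.5 arrays, and most of the rise of 1.29 ± 0.17 came in the first step (1.01, adjusted p = 0.00179). Cyclins Ccnd2 (0.65 ± 0.15) and Ccnd3 (0.51 ± 0.16) and the E2F factor E2f5 (0.57 ± 0.16) rose.

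Of 13 CDK inhibitors, pocket proteins and exit genes 6 rose and 2 fell. Cdkn1c (Entrez gene 12577, chr7:143458339-143461059), which encodes p57, stood at 11.36, 11.34 and 11.61 (E10.5), 12.06, 12.51 and 12.30 (E11.5), and 12.70, 12.76 and 12.61 (E12.5), with the 9 arrays in stage order. It rose by 1.25 ± 0.17, 68.1% of it in the first step. Its E11.5 and E12.5 signals lie above 12, so the size of the second step and this share are uncertain. Cdkn2b, which encodes p15 and inhibits CDK4 and CDK6, rose by 2.65 ± 0.28, and 68% was early. The pocket proteins split: Rb1 (1.27 ± 0.35) and Rbl2 (1.10 ± 0.23) rose and Rbl1 (-0.90 ± 0.15) fell. Cdkn1a, which encodes p21, rose by 1.04 ± 0.24, with 14.2% in the first step. Of 10 p53 target genes 3 rose and none fell, namely Cdkn1a, the death gene Bbc3 (0.57 ± 0.18) and Sesn1 (0.52 ± 0.18), the last not called without E10.5 replicate 3.

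Early embryo regulators fell. Of 11 genes of the Lin28 axis and early embryo 8 fell and none rose (median -0.52), 5 of them even (4 fell within the high set, 1 of them even), and for 5 all 9 arrays stood in stage order. Lin28a (Entrez gene 83557, chr4:134003330-134019196), an RNA-binding protein that blocks maturation of let-7 microRNAs, stood at 9.23, 9.28 and 9.15 (E10.5), 7.33, 7.91 and 7.78 (E11.5), and 5.32, 6.04 and 5.37 (E12.5). No stage overlaps with another. Its steps were -1.55 (adjusted p = 0.00275) and -2.10 (adjusted p = 0.000146), and the 2-day difference was -3.64 ± 0.28. Trim71, a let-7 target that acts in early embryos (-1.46 ± 0.19), Sall4, a stem cell factor (-1.41 ± 0.19), and the DNA methyltransferase Dnmt3b (-1.57 ± 0.16) fell with it. Igf2bp1, an mRNA-binding let-7 target, had steps of 0.04 and -0.55, of which the second was called.

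Of 23 Polycomb, DNA methylation and histone enzymes 9 fell and 1 rose, and 9 of these 10 were even. That timing rested on E11.5 replicate 1: without it 1 of 12 called genes was early, 3 even and 8 late. Ezh2, the methyltransferase of Polycomb repressive complex 2, was the late one with all arrays, at 10.55, 10.47 and 10.51 (E10.5), 10.46, 10.19 and 10.22 (E11.5), and 9.62, 9.41 and 9.22 (E12.5). The stages do not overlap, and the steps were -0.22 and -0.87 (adjusted p = 0.000274). Its relative Ezh1, typical of cells that no longer divide, was the one that rose (0.54 ± 0.15). Hells, a chromatin remodeller that supports DNA methylation (-1.45 ± 0.21), and Dnmt1, which copies methylation after replication (-1.29 ± 0.19), fell. Of 15 imprinted growth genes 3 rose and 4 fell. Igf2, a fetal growth factor, rose by 0.88 ± 0.15 with the arrays in stage order, and Mest (-0.58 ± 0.13) and Peg3 (-0.56 ± 0.14) fell.

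Housekeeping lists moved by small amounts. Of 28 splicing factors 5 fell, such as Snrpb (-0.65 ± 0.14). Of 32 ribosome biogenesis genes 5 fell, such as the nucleolar protein Nop56 (-0.81 ± 0.17), against the 13.2% of all genes that fell. Both lists had a median of -0.26, against -0.01 over all tested genes. All E12.5 arrays lay below all E10.5 arrays for 18 splicing factors and 10 biogenesis genes, and for 2858 of the 13320 tested genes. Of 42 cytosolic ribosomal proteins 1 was called (Rps6, 0.60 ± 0.19, not called without E10.5 replicate 3), of 31 proteasome subunits 0, with Psmd7 at -0.40 ± 0.17, and of 70 respiratory chain genes 2 rose and 1 fell, with Ndufa1 at 0.42 ± 0.13 and Ndufa12 at -0.45 ± 0.14. The medians of these 3 lists were -0.01, -0.11 and -0.03.

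Glycolysis genes fell in part. Of 14 glycolysis genes 7 fell and 1 rose (median -0.41), and 6 had all 9 arrays in falling order. Of the 8 called 5 were even, and of the 9 called without E11.5 replicate 1 8 were even. Within the high set 2 fell. Slc2a3 (Entrez gene 20527, chr6:122727809-122802363), the glucose transporter GLUT3, stood at 9.38, 9.14 and 9.21 (E10.5), 6.52, 7.81 and 7.48 (E11.5), and 5.83, 6.64 and 5.88 (E12.5), with E11.5 replicate 1 inside the E12.5 range. Its steps of -1.98 and -1.16 were both called. Ldha, which makes lactate, stood at 12.73, 12.76 and 12.78 (E10.5), 12.42, 12.35 and 12.22 (E11.5), and 11.85, 11.71 and 11.60 (E12.5), in stage order, with called steps of -0.42 and -0.61. The monocarboxylate carriers that export lactate fell too. Slc16a1 (-1.45 ± 0.20) did so in steps of -0.75 and -0.69, and Slc16a3 (-1.92 ± 0.30) with 10.9% in the first step.

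These carriers belong to 21 genes of ion pumps and nutrient transport, of which 5 rose and 5 fell. Slc7a5, a carrier of large amino acids, rose by 1.32 ± 0.31. Of 17 hypoxia response genes 2 rose and 4 fell: Ndrg1 rose by 1.54 ± 0.33 and Vegfa by 0.66 ± 0.18, both late, and the oxygen sensor Egln3 fell by 1.48 ± 0.19, early. Of 19 cholesterol genes 1 fell (Lss, -0.50 ± 0.15, which another of its probe sets gives with the opposite sign), and the list had steps of opposite sign, -0.21 and 0.21. Of 22 genes of ER folding and the amino acid response 1 rose and 3 fell, among them Sdf2l1 (-1.17 ± 0.17) and the chaperone Hspa5 (-0.48 ± 0.12).

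Autophagy and lysosome genes rose by small amounts. Fibre cells are known to clear their organelles later. Of 25 tested, 10 rose and 1 fell (median 0.35), and of the 11 called 1 was early, 8 even and 2 late. Without E11.5 replicate 1 the 12 called were 5 early, 5 even and 2 late. No rise was called in the first step and 1 in the second, and within the high and low sets 2 and 4 rose over the 2 days. Ctsd, a lysosomal protease, stood at 10.10, 9.96 and 10.37 (E10.5), 10.49, 10.73 and 10.51 (E11.5), and 11.06, 11.12 and 11.01 (E12.5), in stage order, with steps of 0.44 and 0.49. Wipi1, which marks forming autophagosomes, rose by 0.79 ± 0.14, also in stage order, and Fyco1, a cataract-linked adaptor that moves autophagosomes, by 0.82 ± 0.18. Ctsl, another lysosomal protease, fell (-0.65 ± 0.14), 91.1% of it in the first step. Of 28 glutathione and antioxidant enzymes 5 rose and 6 fell. Glutathione synthetase (Gss) rose by 1.87 ± 0.26 and Gstm1 by 1.31 ± 0.21, while Gsta4 fell by 1.83 ± 0.20 in similar steps of -0.93 and -0.90.

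Surface ectoderm genes fell mainly in the first step. Of 25 genes of surface ectoderm and epithelial adhesion 14 fell and none rose over the 2 days (median -0.94), 12 in the first step and 5 in the second. Of the 14, 10 were early, 4 even and none late. The median steps were -0.66 and -0.09. Without E10.5 replicate 3, 13 fell, and within the high and low sets 13 each. Dsp (Entrez gene 109620, chr13:38151294-38198577), which anchors keratin to desmosomes, stood at 9.87, 10.41 and 9.38 (E10.5), 6.09, 6.29 and 6.20 (E11.5), and 4.55, 4.49 and 4.18 (E12.5), with the 3 stages far apart and E12.5 at background. The second step of -1.79 was smaller than the first of -3.69 (difference 1.90 ± 0.40, adjusted p = 0.0366). The total was -5.48 ± 0.23 (adjusted p = 1.47e-11). Because Dsp ends at background, its second step may be cut short, and the difference between the steps is uncertain. The same limit holds for other members of the list that reach background.

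Epcam (Entrez gene 17075, chr17:87635979-87651127), an adhesion molecule of simple epithelia, stood at 10.25, 10.21 and 9.92 (E10.5), 6.93, 7.24 and 7.20 (E11.5), and 5.56, 5.25 and 5.26 (E12.5), and was called in both steps. It kept falling after the first day, with 63% of the change by E11.5. A second Epcam probe set did not show the fall (0.31 over the 2 days). Krt8, a keratin of simple epithelia, stood at 10.25, 10.56 and 9.71 (E10.5), 6.64, 7.34 and 6.83 (E11.5), and 5.50, 6.01 and 5.90 (E12.5), with steps of -3.23 and -1.13. Its partner Krt18 fell more in the second step (-1.39 and -2.27), though the difference between its steps was not called (adjusted p = 0.674). Esrp1, an epithelial splicing factor, reached background by E11.5, at 7.75, 8.13 and 7.09 (E10.5), 4.35, 4.47 and 4.43 (E11.5), and 4.19, 4.01 and 4.60 (E12.5). Cdh1, E-cadherin, which the lens epithelium keeps, fell by only 1.04 ± 0.18 and still averaged 10.38 ± 0.16 at E12.5, against 11.42 ± 0.25 at E10.5.

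Of 13 lens placode and epithelium factors 5 fell and none rose. Sox2 (Entrez gene 20674, chr3:34649995-34652461), which acts with Pax6 in the placode, stood at 10.68, 10.89 and 10.54 (E10.5), 8.98, 8.71 and 9.17 (E11.5), and 7.81, 8.17 and 7.82 (E12.5), without overlap between stages. Its steps of -1.75 and -1.02 were both called. Six4 (-1.34 ± 0.20), Tfap2a (-1.33 ± 0.17), Meis1 (-1.01 ± 0.14) and Eya1 (-0.69 ± 0.19), placode and eye field factors, fell as well, with 63.2% to 79.3% of the change in the first step across the 5 genes. Pax6, the eye master regulator, was not called (-0.62 ± 0.36, adjusted p = 0.26), nor was Foxe3, the forkhead factor of the lens epithelium (-0.10 ± 0.32, adjusted p = 0.874), whose sign turned without E10.5 replicate 3 (0.06).

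Retinoid genes moved in opposite directions, 2 up and 6 down of 15. Aldh1a3 and Aldh1a2 both make retinoic acid. Aldh1a3 stood at 9.55, 9.92 and 9.12 (E10.5), 6.38, 7.32 and 7.46 (E11.5), and 6.10, 6.52 and 6.33 (E12.5), and fell by 3.21 ± 0.26, mostly early. Aldh1a2 stood at 4.38, 5.19 and 4.60 (E10.5), 5.20, 6.75 and 5.44 (E11.5), and 7.66, 8.09 and 7.58 (E12.5), and rose by 3.06 ± 0.32. Crabp1, which binds retinoic acid in the cytosol, fell in similar steps (-1.90 and -2.01) to 6.55 ± 0.68 at E12.5, against 10.46 ± 0.36 at E10.5. Stra6, the receptor that takes up retinol, fell late (-1.60 ± 0.23, 30.6% in the first step).

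**Figure D5:**
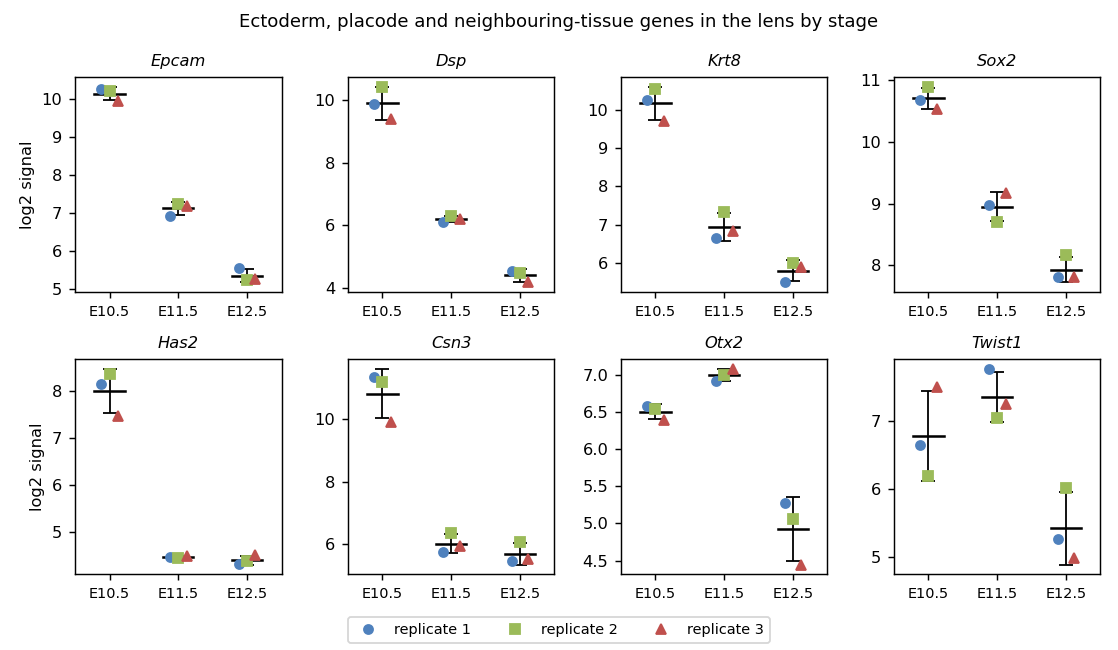
Log2 signal of 8 genes of ectoderm, placode and neighbouring tissue on each lens array by stage, with the replicate number by colour and shape, the mean as a bar and the SD (n = 3) as whiskers. Has2, Csn3 and Dsp drop mainly before E11.5, Sox2 descends over both days, and Otx2 and Twist1 are lowest at E12.5 only.

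Signalling lists had called members in both directions. Against 22.1% of all tested genes, a smaller share of the BMP and TGF-beta lists was called. The share was larger for the FGF, Wnt, Notch and IGF lists. Median 2-day changes were close to the -0.01 of all tested genes for TGF-beta (-0.03), Wnt (0.002) and Notch (0.02). They were -0.10 for BMP, -0.23 for IGF and -0.46 for FGF. Of 16 FGF receptors and feedback targets 2 rose and 6 fell. Fgfr3 stood at 6.45, 6.69 and 8.47 (E10.5), 7.20, 9.27 and 8.90 (E11.5), and 9.57, 10.59 and 10.39 (E12.5), with E10.5 replicate 3 and E11.5 replicate 1 apart from their stages, and rose by 2.98 ± 0.47. Fgfr2 fell by 0.84 ± 0.20. The feedback inhibitors diverged. Spry1 rose by 1.48 ± 0.26, while Dusp6, a MAP kinase phosphatase, fell by 1.43 ± 0.25, 72.5% of it in the first step.

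Of 19 BMP genes 2 rose and 2 fell. The BMP response genes Id2 (0.96 ± 0.23) and Id3 (-1.13 ± 0.19) went apart, both late, while Msx1 rose by 1.29 ± 0.28 and the inhibitor Smad6 fell by 0.61 ± 0.15. Of 20 TGF-beta and activin genes 3 rose and 1 fell, and Tgfb2, a ligand made by lens fibres, stood at 8.25, 7.94 and 8.29 (E10.5), 9.07, 9.52 and 9.59 (E11.5), and 9.77, 9.87 and 9.71 (E12.5), in stage order, with 75.8% of its rise of 1.62 ± 0.15 in the first step. Of 29 Wnt genes 5 rose and 4 fell. Wnt7b rose evenly (1.84 ± 0.25), the antagonist Sfrp1 early (1.71 ± 0.22), and the antagonists Dkk1 (-1.12 ± 0.21) and Sfrp2 (-0.85 ± 0.17) fell.

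Of 20 Notch genes 3 rose and 3 fell: the modulator Lfng rose by 1.71 ± 0.39 with all arrays in stage order, and the target Hes1 fell by 1.24 ± 0.21. Of 20 IGF, EGF and PDGF genes 3 rose and 6 fell. Irs1, an adaptor of the insulin and IGF receptors, rose by 1.92 ± 0.21 and Igfbp7 by 1.42 ± 0.18. Igfbp2 fell in similar steps (-0.94 and -0.87), and the ligand Pdgfc in the first (-1.90 and -0.41, difference 1.49 ± 0.27, adjusted p = 0.0172).

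Cell adhesion shifted by gene. Called were 17.6% of Eph and ephrin genes, 52.9% of cadherins and catenins and 38.5% of integrins, against 22.1% of all tested genes. Of 17 Eph receptors and ephrins 3 fell, and the ligands Efna2 (-0.56 and -0.76) and Efna4 (-0.48 and -0.45) did so in 2 called steps of similar size. Of 17 cadherins and catenins 4 rose and 5 fell. Ctnna2, alpha N-catenin, rose by 2.19 ± 0.32, late, and Arvcf, a catenin of the p120 group, by 0.97 ± 0.18, with arrays in stage order. Cdh6 fell to 5.33 ± 0.18 at E11.5 and stood at 5.73 ± 0.26 at E12.5, against 6.92 ± 0.65 at E10.5. Of 13 integrins 3 rose and 2 fell, led by Itga6, a laminin receptor subunit (1.14 ± 0.14), and Itga3 (-1.38 ± 0.24).

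Matrix genes of mesenchyme moved in 2 opposite groups. Of 16 tested 10 rose and 3 fell. Tenascin C, Tnc (Entrez gene 21923, chr4:63959785-64047015), an adhesion-modulating protein, stood at 9.57, 9.998 and 9.30 (E10.5), 8.24, 7.20 and 7.43 (E11.5), and 4.78, 4.83 and 4.12 (E12.5), with no overlap between stages and E12.5 near background. Its steps of -2.0 and -3.04 were both called, and the 2-day difference was -5.05 ± 0.26. Versican (Vcan, -4.79 ± 0.23) and fibronectin (Fn1, -2.31 ± 0.26) also fell in both steps. The collagen Col1a2 rose in the first step and not in the second (2.31 and -0.33, difference -2.64 ± 0.39, adjusted p = 0.00297), as did lumican, Lum (1.90 and -0.63). Osteoglycin (Ogn), a small matrix proteoglycan, stood at 4.62, 5.54 and 8.06 (E10.5), 6.55, 8.20 and 7.79 (E11.5), and 10.71, 10.63 and 10.88 (E12.5), and rose by 4.67 ± 0.55.

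Of 13 head mesenchyme regulators 6 fell and 1 rose, and 5 of these were late. Foxc1, a forkhead factor of periocular mesenchyme, stood at 9.25, 8.89 and 9.48 (E10.5), 9.02, 8.88 and 8.96 (E11.5), and 7.78, 8.22 and 7.72 (E12.5), and fell by 1.04 in the second step (adjusted p = 0.00105). Twist1 stood at 6.65, 6.18 and 7.48 (E10.5), 7.75, 7.04 and 7.24 (E11.5), and 5.27, 6.02 and 5.0 (E12.5), and Snai2 fell evenly (-1.80 ± 0.21). The summed signal of the head mesenchyme list was 12.40 to 12.50 at E10.5, 12.14 to 12.38 at E11.5 and 11.68 to 11.82 at E12.5, against 13.09 to 13.14 in whole embryos. That of the matrix list was 13.04 to 13.25, 12.86 to 13.38 and 12.86 to 13.25 at the 3 lens stages, against 14.77 to 14.96. The part of carried-along mesenchyme in these results was not tested.

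Lists of other neighbouring cells differed in how many members were called. Of 7 pigment cell and optic vesicle genes 1 rose (Oca2, 1.37 ± 0.20) and 1 fell. The list summed to 9.14 to 9.35 at E10.5, 10.03 to 10.33 at E11.5 and 9.47 to 9.61 at E12.5, against 9.14 to 9.25 in whole embryos. Otx2, a factor of the eye cup, stood at 6.58, 6.54 and 6.39 (E10.5), 6.92, 7.0 and 7.08 (E11.5), and 5.27, 5.06 and 4.45 (E12.5), highest at E11.5 and lowest at E12.5. Of 9 retina progenitor genes 1 fell, Sfrp2, and the list summed to 13.53 to 13.66, 13.09 to 13.56 and 12.77 to 12.81 at the 3 stages, above the 11.36 to 11.68 of whole embryos. Of 10 erythroid genes 2 rose and 1 fell, with the heme enzyme Alas2 at 1.56 ± 0.35 and the embryonic globin Hbb-bh1 at -1.10 ± 0.34. The erythroid sums were 14.30 to 15.09, 15.26 to 15.39 and 14.72 to 15.08, against 15.61 to 15.78 in whole embryos.

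Of 13 endothelial genes 1 rose, the angiopoietin receptor Tek (1.43 ± 0.38). The endothelial sums were 11.18 to 11.46, 11.26 to 11.60 and 11.31 to 11.41, close to the 11.51 to 11.63 of whole embryos. Of 15 macrophage genes 3 rose and 2 fell. Mrc1, the mannose receptor, rose by 1.79 ± 0.23 and Lyve1 by 2.98 ± 0.47 with background levels at E10.5, while the pan-leukocyte marker Ptprc (-1.15 ± 0.32) and the microglial receptor Cx3cr1 (-0.75 ± 0.23) fell. The macrophage sums were 11.24 to 11.39, 10.75 to 11.45 and 10.92 to 11.62, against 10.67 to 11.01 in whole embryos. Of 13 neuron genes 0 were called, with Gap43 at -0.55 ± 0.24, and the list summed to 8.79 to 8.88 on the E12.5 arrays and 8.76 to 8.83 on the E10.5 arrays, with 13.64 to 13.88 in whole embryos.

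Of 12 muscle genes 1 rose (Tnni1, 1.53 ± 0.21), and the list summed to 8.66 to 9.34 in the lens, against 13.71 to 13.97. Of 23 Hox genes 0 were called, with Hoxb2 at 0.46 ± 0.18. Of 13 immediate early and heat shock genes, which respond to handling, 2 rose (Jun, 1.46 ± 0.26, and Dusp1, 0.99 ± 0.29) and 2 fell (Ier2, -1.13 ± 0.18, and Hsph1, -0.47 ± 0.15). The actin 3′ to 5′ probe set difference, a measure of RNA quality, lay between 0.21 and 0.48 on the arrays of the lens series. On the tooth germ arrays and the whole embryos of their series it lay between 4.22 and 5.05. Those arrays enter the fit through the shared spread and the choice of probe set.

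Outside the lists, the steady changes included genes with less familiar roles in the lens. Cap2, which severs and recycles actin filaments, stood at 7.15, 7.53 and 8.09 (E10.5), 8.47, 9.44 and 9.17 (E11.5), and 10.80, 10.46 and 10.52 (E12.5), in stage order, with called steps of 1.44 and 1.57. Spon1, a secreted matrix protein, rose by 1.82 and 1.71, and Pip5kl1, a phosphoinositide kinase-like protein, by 1.70 and 2.27. Cpeb1, which controls poly(A) tails of mRNAs, rose by 1.37 and 1.66. Cxcl14, a chemokine of epithelia, stood at 10.01, 9.50 and 8.57 (E10.5), 7.91, 5.54 and 5.61 (E11.5), and 4.09, 3.85 and 3.56 (E12.5), and fell in both steps.

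Other genes outside the lists changed in 1 step. Has2, which makes hyaluronan, fell to background within the first day, at 8.16, 8.37 and 7.47 (E10.5), 4.47, 4.45 and 4.47 (E11.5), and 4.32, 4.37 and 4.50 (E12.5), and its 2-day difference was -3.61 ± 0.21. Csn3, kappa casein of milk, changed mainly in the first step as well, at 11.36, 11.19 and 9.92 (E10.5), 5.76, 6.36 and 5.93 (E11.5), and 5.46, 6.08 and 5.52 (E12.5) (-5.13 ± 0.29). The rise of some genes rested on few arrays of the earlier stages. Gje1, a connexin gene of the lens, stood at 4.03, 5.47 and 9.68 (E10.5), 5.41, 10.32 and 9.29 (E11.5), and 11.34, 11.89 and 11.96 (E12.5), with replicates of E10.5 and E11.5 spread over several units, and rose by 5.34 ± 1.06. Nrcam, a neuronal adhesion molecule, rose by 4.31 ± 0.63, and Pla2g7, a lipoprotein-associated phospholipase, by 4.56 ± 0.73, with almost no first step (-0.04).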

How the data were processed

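The authors deposited 1 intensity per probe set and array, untransformed (5.4 to 25043.5); the arrays' medians were 42.5 to 46.5. Per the submitters' processing notes they come from RMA, with affy 0.7 listed. RMA brings arrays to a common distribution, so a shift shared by most genes cannot be seen in them. Arrays have no depth, and precision is limited by their number. The intensity values were turned to log2. The platform annotation ties 34945 of 45101 probe sets to exactly 1 gene. Each of 18193 genes is represented by its probe set with the highest mean log2 over the 19 arrays, and 13320 genes above 5.46 on at least 3 arrays were tested.

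The test was limma's (limma 3.58.1, R 4.3.3), with 1 mean per group over all 19 arrays, two-sided, with Benjamini-Hochberg adjustment over all tested genes and a threshold of 0.05. On simulated data of the same design the script recovered the changes that had been put in. Symbols, positions and promoter sequences are RefSeq's for assembly GRCm38.p6, where 10665 tested genes had a promoter. Figures were drawn with matplotlib 3.10.9.

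The comparison, its gene lists and the rule for named genes were chosen with earlier results of these data known. Genes are named where they are among the 12 largest rises or falls called with and without E10.5 replicate 3 and without overlap, the 8 largest in each direction called in both steps, the 6 largest step differences in each direction, or up to 5 called and 5 opposing members of a list (2 where none was called), and 15 genes are always considered where they were tested. Foxm1 and the 4 further promoter genes Cdc20, Top2a, Cdk1 and Mcm6 were added after their values were seen. Alternatives covered each lens array left out, the arrays in the fit, blocks, scaling, filter, offset, probe set choice, moderation and array weights.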

Additional observations from a re-analysis of the deposited data

Results flagged for a closer look

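For 18 named genes the second step differed from the first by limma's test of the difference. All values are second step minus first step on the log2 scale.

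Genes that changed mainly in the first step were Csn3 (4.48, first step -4.80), Has2 (3.47), Gm3515 (3.20), Esrp1 (3.10), Krt8 (2.10), Cdh6 (1.98), Dsp (1.90), Pdgfc (1.49) and Epcam (1.24), all lower at E12.5 than at E10.5. Of these 9 genes, Epcam had the smallest gap between its steps, and Krt8, Dsp and Epcam went on falling in the second step. Has2 and Esrp1 were at background by E11.5 and Dsp by E12.5, so a further fall could not show in full.

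Late rises were those of Gcg, the glucagon precursor (4.64, adjusted p = 0.0181), Tmcc3, a coiled-coil membrane protein (3.37), Lin7a, a scaffold protein of cell junctions (2.76), and Tmod1 (2.24). Gcg stood at 3.64, 3.58 and 6.59 (E10.5), 4.22, 5.07 and 4.17 (E11.5), and 8.76, 9.12 and 9.13 (E12.5). Only E10.5 replicate 3 lies above the E11.5 arrays before the rise. The difference for Tmcc3 was not called without E10.5 replicate 3 (adjusted p = 0.0624).

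Negative values mark genes that stood higher at E11.5 than at either end or rose in the first step only. Ppbp, a platelet chemokine, had -3.10, Col1a2 -2.64, Otx2 -2.57, Lum -2.53 and Twist1 -2.49. Otx2 and Twist1 fell in the second step, and Ppbp, Col1a2 and Lum rose in the first. Markers of pigment cells and erythroid cells were also highest at E11.5 (summed signals of 10.03 to 10.33 and 15.26 to 15.39), and their part in these values was not tested.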

How the results depend on the processing

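Leaving out 1 lens array at a time gave 823 to 1469 rises and 1245 to 2056 falls. Within the high bacterial control set 672 rose and 896 fell, within the low set 759 and 1079, at least 2-fold 468 and 553, and array quality weights, whose estimation did not reach its tolerance, gave 1880 rises. No gene was called in opposite directions between the reported fit and any alternative other than the probe set of largest SD, where 3 were.

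Counts that rest on single steps moved more. The falling count of 100 became 26 with the 9 lens arrays alone, 11 within the high set, 23 within the low set, 65 with the probe set of largest SD, 601 with array weights, 20 at 2-fold and 38 to 104 with 1 array left out (38 without E10.5 replicate 2). The rising count of 49 became 8, 13 within the low set, 80 after centring, 418 with array weights, 15 at 2-fold and 14 to 103 with 1 array left out (14 without E10.5 replicate 2, 103 without E10.5 replicate 3). Without E10.5 replicate 3 and E11.5 replicate 1 together, a choice made after seeing the data, it was 144 and the falling count was 110. The count of 48 genes with unequal steps became 3 with the 9 arrays alone, 120 within the high set, 939 with array weights, 78 without both arrays, and 15 to 55 with 1 left out (15 without E11.5 replicate 3).

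With the replicate number as a block over the 9 lens arrays, 30 genes rose in both steps and 11 had unequal steps, while 1270 rose and 1908 fell over the 2 days. Same-numbered arrays correlated between -0.059 and 0.641 in their deviations from the stage means, and differently numbered arrays between -0.597 and 0.44. Replicate 1 gave 0.502 to 0.614 and replicate 3 gave 0.254 to 0.405. Replicate 2 gave 0.641 between E11.5 and E12.5, but -0.059 and -0.028 with E10.5, so the main fit did not pair the arrays by number. Whether same-numbered arrays share a batch was not tested.

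Crystallins called higher were 6 with the 9 lens arrays alone, 5 with the 6 arrays alone, 0 within the low set, and 5 to 12 with 1 array left out (5 without E10.5 replicate 1 and without replicate 2). The 2-day counts of the fibre (higher), surface ectoderm, replication and mitosis (lower) lists stayed within 1.5 times under all alternatives run, but their step counts did not: second-step falls were 2 within the high set for mitosis (33 with all arrays) and for replication (30). The even share of rises was 28.9% within the high set, 30.8% without E11.5 replicate 2 (30.8% to 45.6% with 1 array left out), and 58.7% with an even class between 25% and 75%. That of falls was 33.7% within the high set and 71.5% with the wider class.

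Signs turned for Crygb (-0.27) and Crygf (-0.17) within the low set, for Foxe3 with the control set as a block (0.073) and within the high set (0.34), and for Hnrnpd with the probe set of largest SD (0.089). With 1 array left out, Foxe3 ranged between -0.353 (without E10.5 replicate 2) and 0.116 (without E12.5 replicate 3), being 0.06 without E10.5 replicate 3, and Hoxb3 between -0.003 (without E10.5 replicate 2; -0.004 within the low set) and 0.547 (without E10.5 replicate 3). List medians turned for basement membrane (-0.033, low set), cholesterol (0.13, low set) and erythroid cells (-0.31, low set). Medians close to 0 turned too, such as that of macrophages (0.289 within the high set). With 1 array left out the medians lay between -0.2185 and 0.041 for cholesterol, -0.029 and 0.4495 for erythroid cells, and -0.011 and 0.2757 for imprinted genes, with the turned sign always without E10.5 replicate 2 and the opposite end without E10.5 replicate 3. The causes were not tested. Of the 249 named genes, 233 kept their call without E10.5 replicate 3, 217 with the 9 lens arrays alone, 181 within the low set and 168 within the high set. Of the 241 called, 141 had a further probe set above the filter. For 1 of these, Lss, it had the opposite sign by at least 0.5. Further probe sets of Cenpa (-0.12), Epcam (0.31), Cdc45 (0.00), Fyco1 (0.06) and Ccnd3 (-0.06), among others, did not show the reported 2-day change. Signals at background or near the ceiling, mainly of crystallins, limit the size of the differences.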

Other observations

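Some steady changes lie in genes outside the lists. Tppp3, a tubulin-binding protein, stood at 6.41, 5.65 and 6.64 (E10.5), 6.65, 7.74 and 7.20 (E11.5), and 9.18, 9.17 and 8.99 (E12.5), in the order of the stages on all 9 arrays, with called steps of 0.96 and 1.92. Sowaha, an ankyrin-repeat protein, rose by 1.10 and 1.90, both called. Zfp365, a zinc finger protein, rose by 4.18 ± 0.55, and its second step of 2.52 was called. The late rise of Gss and the even rise of Gstm5 (0.64 ± 0.14), a glutathione transferase in stage order on all 9 arrays, stood beside falls of Mgst1 (-1.38 ± 0.32) and Gstm2 (-0.97 ± 0.22) among the glutathione enzymes.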
